A study of Mus musculus with 18 samples.

Results

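U90926, Sema4c and Errfi1 are 3 genes of mouse macrophages that lipopolysaccharide (LPS) induced strongly in wild-type (WT) and APRIL KO cells and poorly in BAFF KO cells. They are 3 of the 11164 genes listed in the deposited table, and all 3 were among the 9934 genes that reached a group mean of 1 RPKM (reads scaled to the length of the gene and to the depth of the library). They were picked from these same measurements: the rule asked for genes outside the classic cytokine families that rose less with LPS in BAFF KO than in WT and APRIL KO, or stood much lower. The shortfall in BAFF KO is therefore given below as a description, with standard errors and without a test. What the rule did not use are the direct comparison of APRIL KO with WT, the genes around the members in their pathways and on their chromosomes, and their promoter sequences. The rule did set both APRIL KO and WT above BAFF KO, which favours likeness between them.

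The cells were macrophages grown from the bone marrow of C57BL/6J mice that were BAFF KO, APRIL KO or WT. BAFF and APRIL are sister cytokines of the TNF family, known above all for sustaining B cells and plasma cells. Cells of each genotype were given 10 ng/ml LPS, a component of bacterial outer membranes that Toll-like receptor 4 senses, for 4 h, or were left unstimulated. The labels of all samples also carry a preterm birth time point at day 16 of gestation. Whether the libraries are from different mice or different dishes is not said, so a p-value here covers the variation between libraries alone, and that variation may be technical. BAFF KO, APRIL KO and WT each had 2 LPS libraries and 1 unstimulated library, and each of the 9 libraries had 2 columns in the table, whose mean was used. The libraries held between 5121833 and 6020780 reads in listed genes. Tnfsf13, the gene for APRIL, had 0 reads in all 3 APRIL KO libraries. In BAFF KO it had 169 and 226 reads with LPS and 486 unstimulated, and in WT 119 and 134 with LPS and 392 unstimulated. The gene for BAFF is not analysed here, and the BAFF KO labels have no such check.

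The 3 genes do different work. U90926 is a short transcript known from activated mouse macrophages; GENCODE M21 lists it as protein coding and RefSeq as a long noncoding RNA, and a small secreted protein has been described from it. Sema4c is a transmembrane semaphorin, one of a family of guidance proteins; it signals to cells that carry plexin-B2, and its tail binds the adaptor Gipc1. Errfi1, also called Mig6, is an early response gene whose protein binds the kinase domain of the EGF receptor and shuts it off, and it is known as a feedback inhibitor that the pathway itself induces. LPS-induced genes of macrophages often carry NF-kB, AP-1 or interferon-regulated elements near their starts.

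U90926 (ENSMUSG00000029409) lies on the minus strand of chromosome 5 at 92209893 to 92215408, Sema4c (ENSMUSG00000026121) on the minus strand of chromosome 1 at 36548639 to 36558349, and Errfi1 (ENSMUSG00000028967) on the plus strand of chromosome 4 at 150853919 to 150868892 (GENCODE M21, mm10). The lengths behind their RPKM are 514, 4578 and 3576 bases, so 1 read counts for more RPKM in U90926 than in the others. The noncoding genes D430040D24Rik and 1700045H11Rik run on the other strand over Sema4c and Errfi1. Neither is among the genes used here, and because the labels do not settle whether the libraries kept strand, their reads cannot be told apart from those of Sema4c and Errfi1. No annotated gene overlaps U90926.

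The promoter windows show the sequence before the starts of the 3 genes. RefSeq (GRCm38.p6, the same coordinates as mm10) gives 1 start for U90926 and 2 each for Sema4c and Errfi1, and the 250 bases before each start were searched on both strands for 7 motifs. AP-1 was searched as TGANTCA, the cyclic AMP element CRE as TGACGTCA, and the TATA box as TATAAA. The STAT element GAS was searched as TTCNNNGAA and the interferon element ISRE as GAAA, any 2 bases and GAAA again, beside NF-kB and the serum response element CArG. The windows of U90926, of the first Sema4c start and of the second Errfi1 start are printed 5′ to 3′ on the gene's own strand, up to the base before the start, with motif matches in capitals.
U90926, chr5:92215409-92215658, minus strand: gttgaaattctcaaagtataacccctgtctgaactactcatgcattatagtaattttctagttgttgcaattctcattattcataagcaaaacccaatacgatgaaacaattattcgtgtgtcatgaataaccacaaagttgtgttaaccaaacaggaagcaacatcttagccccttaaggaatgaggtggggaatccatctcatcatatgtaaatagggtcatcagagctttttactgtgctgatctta
Sema4c, first start, chr1:36558382-36558631, minus strand: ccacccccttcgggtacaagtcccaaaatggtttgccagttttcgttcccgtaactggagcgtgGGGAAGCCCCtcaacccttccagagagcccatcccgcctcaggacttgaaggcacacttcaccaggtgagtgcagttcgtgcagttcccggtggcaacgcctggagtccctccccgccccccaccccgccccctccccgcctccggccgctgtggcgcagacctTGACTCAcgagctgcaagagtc
Errfi1, second start, chr4:150854820-150855069, plus strand: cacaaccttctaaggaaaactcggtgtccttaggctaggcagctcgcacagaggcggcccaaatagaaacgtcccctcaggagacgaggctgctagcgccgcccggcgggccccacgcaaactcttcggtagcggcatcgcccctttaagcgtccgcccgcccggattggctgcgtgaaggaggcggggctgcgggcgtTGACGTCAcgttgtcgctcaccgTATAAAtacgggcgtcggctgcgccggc
The U90926 window has 36% G and C, below the tenth percentile of 38.8% over 32841 mouse promoter windows of this length, and holds none of the motifs. The Sema4c window has 64.4% G and C. Its capitals mark an NF-kB match, GGGAAGCCCC, at bases -186 to -177 before the start, found on both strands at the same place, and an AP-1 match, TGACTCA, at -22 to -16. The Errfi1 window has 64.8% G and C, and its capitals mark a CRE match, TGACGTCA, at -51 to -44 and a TATA match, TATAAA, at -28 to -23. No match overlapped one of another motif, and the 3 printed windows have no motif in common.

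Of all windows, 7.25% hold an NF-kB match, 6.75% an AP-1 match, 1.55% a CRE match and 12.4% a TATA match. GAS is found in 7.02%, ISRE in 2.98% and CArG in 1.47% of windows and in none of the 5 windows of the 3 genes. The windows of the second Sema4c start, with 69.6% G and C, and of the first Errfi1 start, with 38%, hold no match to any of the motifs. No motif is found in more than 12.4% of all windows, and the share of windows with none of them is not given here. Nothing is therefore read from windows without a match, that of U90926 included. A match is a string of letters and no evidence of binding, and which start the macrophages used cannot be read from RPKM per gene. Exons of D430040D24Rik lie in the Sema4c windows, and exons of 1700045H11Rik in the window of the second Errfi1 start.

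U90926 had no reads without LPS and many with it in WT and APRIL KO. In BAFF KO with LPS it was at 8.004 and 10.9 RPKM in the 2 columns of the first library and at 12.02 and 7.63 in those of the second. In APRIL KO with LPS the columns gave 99.4 and 109.9 RPKM, then 104 and 79.9. In WT with LPS they gave 97.1 and 97.1 RPKM, then 101 and 124. No column of BAFF KO came near the others: the lowest column of APRIL KO and WT was 6.65 times the highest of BAFF KO. Without LPS not 1 read of U90926 was seen in any of the 6 columns of the 3 genotypes; 3 reads would have been worth between 1.01 and 1.06 RPKM per library, and the value deposited in all 6 is a floor of 0.738 RPKM.

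With LPS U90926 averaged 9.64 ± 0.269 RPKM in BAFF KO, 98.2 ± 9.09 in APRIL KO and 105 ± 11.2 in WT (SD, n = 2 libraries each). BAFF KO thus had 9.18% of the WT level, and APRIL KO 93.6%. In reads this is 51 in BAFF KO, 564 in APRIL KO and 570 in WT. Exact Poisson intervals of 95%, which cover counting error only, ran up to 13.6 and 12.3 RPKM in the BAFF KO libraries, while their lower ends were 94.4 and 76.6 in APRIL KO and 85.1 and 104 in WT. The gene still responded in BAFF KO. Taken from the recovered reads, against a floor of 3 reads in the unstimulated library of the same genotype, LPS put it at least 8.72-fold higher in BAFF KO, at least 94.1-fold higher in APRIL KO and at least 100.1-fold higher in WT.

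Sema4c, unlike U90926, was read in unstimulated cells of every genotype, and its LPS response in BAFF KO was close to 0. In BAFF KO with LPS the columns gave 2.18 and 1.83 RPKM, then 3.26 and 2.09. In APRIL KO with LPS they gave 13.9 and 14.7 RPKM, then 18.3 and 16.6. In WT with LPS they gave 12.95 and 13.9 RPKM, then 11.9 and 12.3. The groups of BAFF KO and of the other genotypes again stood apart, with a gap of 3.65-fold between the nearest columns. Unstimulated columns were at 2.22 and 2.29 RPKM in BAFF KO, 2.60 and 2.27 in APRIL KO and 1.46 and 1.59 in WT. The LPS columns of BAFF KO overlap its unstimulated ones.

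With LPS Sema4c averaged 2.34 ± 0.472 RPKM in BAFF KO, 15.9 ± 2.21 in APRIL KO and 12.8 ± 0.945 in WT (SD, n = 2 libraries each). Unstimulated libraries were at 2.26 RPKM in BAFF KO, 2.43 in APRIL KO and 1.53 in WT, from 58 reads in BAFF KO, 60 in APRIL KO and 37 in WT. The level with LPS was 1.04-fold that of unstimulated cells in BAFF KO, 6.52-fold in APRIL KO and 8.37-fold in WT. A rise in BAFF KO was not detectable at this depth: the exact Poisson interval of its unstimulated library, 1.67 to 2.84 RPKM, overlaps those of both of its LPS libraries, 1.36 to 2.49 and 1.85 to 3.05. Among the unstimulated libraries Sema4c was not lower in BAFF KO than in WT.

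Errfi1 was low in BAFF KO both with LPS and without it. In BAFF KO with LPS the columns gave 1.64 and 0.861 RPKM, then 2.16 and 2.19. In APRIL KO with LPS they gave 17.8 and 17.5 RPKM, then 14.3 and 14.8. In WT with LPS they gave 20.4 and 20.97 RPKM, then 15.8 and 14.3. The gap between the highest column of BAFF KO and the lowest of the others was 6.52-fold. Unstimulated columns were at 0.897 and 0.788 RPKM in BAFF KO, 1.66 and 1.67 in APRIL KO and 2.17 and 3.63 in WT. Here the order of the genotypes was BAFF KO lowest and WT highest in every column.

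With LPS Errfi1 averaged 1.71 ± 0.654 RPKM in BAFF KO, 16.1 ± 2.23 in APRIL KO and 17.9 ± 3.97 in WT (SD, n = 2 libraries each). The level with LPS was 2.04-fold that of unstimulated cells in BAFF KO, 9.66-fold in APRIL KO and 6.15-fold in WT. Unstimulated BAFF KO had 29.0% of the unstimulated WT level and APRIL KO 57.5%, from 15 reads in BAFF KO, 32 in APRIL KO and 60 in WT. The exact Poisson interval of 0.406 to 1.20 RPKM in unstimulated BAFF KO lies below that of 2.33 to 3.93 in WT, while that of APRIL KO, 1.07 to 2.22, overlaps BAFF KO. With 1 unstimulated library per genotype there is no replicate check on this difference. The BAFF KO libraries with LPS differed most for this gene, at 1.25 RPKM (19 reads) in the first and 2.18 (45 reads) in the second.

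**Figure D1:**
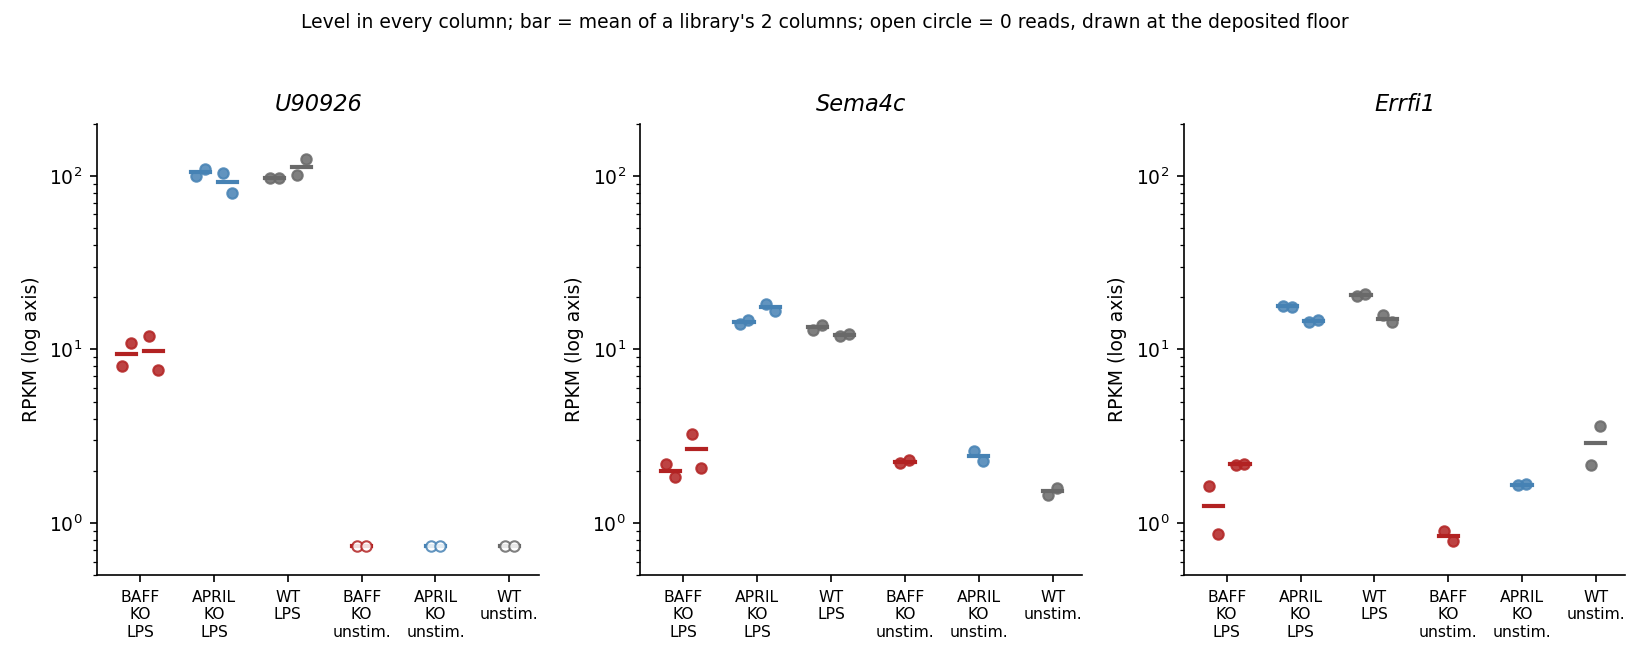
RPKM of U90926, Sema4c and Errfi1 on a log axis in every column, grouped by BAFF KO, APRIL KO and WT with LPS and then unstimulated; bars are the mean of a library's 2 columns and open circles stand for 0 reads at the deposited floor. The BAFF KO columns with LPS lie below all APRIL KO and WT columns with LPS in each panel, and for Sema4c they overlap the unstimulated columns.

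In the order of the levels with LPS BAFF KO stood lowest for all 3 genes. For U90926 and Errfi1 WT had the highest mean and for Sema4c APRIL KO had it. APRIL KO and WT, which the rule did not set against each other, were not told apart by the test for any of the 3 genes. The rule did set both above BAFF KO, so a gene high in APRIL KO alone or in WT alone was unlikely to be picked. The test is therefore not independent of the choice. APRIL KO minus WT with LPS was -0.09 for U90926 (95% interval -0.38 to 0.19), 0.29 for Sema4c (-0.10 to 0.68) and -0.13 for Errfi1 (-0.65 to 0.39) on the log2(RPKM + 1) scale. The adjusted p (limma, Benjamini-Hochberg over 9934 genes, 2-sided) was 0.749 for U90926, 0.445 for Sema4c and 0.815 for Errfi1. Of all genes, 0.211% were called in this comparison, 1 higher (0.0101%) and 20 lower (0.201%) in APRIL KO.

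The LPS response itself was also compared between APRIL KO and WT, with the same limit from the choice of genes. The response in APRIL KO minus that in WT was -0.09 for U90926 (95% interval -0.59 to 0.41), -0.15 for Sema4c (-0.84 to 0.53) and 0.42 for Errfi1 (-0.48 to 1.32), with a limma adjusted p of 0.998 for each gene. No gene at all was called in this comparison (0 of 9934, with 337 at an unadjusted p under 0.05 and 8 called when the 18 columns were treated as separate samples). Each response rests on 1 unstimulated library, which is assumed to vary like the groups of 2.

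On the same log2(RPKM + 1) scale BAFF KO minus WT with LPS was -3.31 (SE 0.12) for U90926, -2.05 (SE 0.17) for Sema4c and -2.80 (SE 0.22) for Errfi1. Of all genes, 4.35% were called lower in BAFF KO than in WT, and nothing is read from the members being among them, since the rule used this contrast. BAFF KO minus APRIL KO, which shares the BAFF KO libraries, was -3.22 for U90926, -2.34 for Sema4c and -2.67 for Errfi1 (3.06% of all genes called lower). The median of all genes was 0.02 in both comparisons. Ranked from the lowest of all 9934 genes against WT, U90926 stood at place 4, Errfi1 at 6 and Sema4c at 30.

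The responses show the 3 genes at different distances from a full loss. LPS minus unstimulated in BAFF KO was 2.61 (SE 0.15) for U90926, 0.03 (SE 0.21) for Sema4c and 0.54 (SE 0.28) for Errfi1. In APRIL KO it was 5.83, 2.29 and 2.67 for the same genes, and in WT 5.93, 2.44 and 2.26. Of all genes, 16.0% were called higher with LPS in BAFF KO, 14.4% in APRIL KO and 13.7% in WT. The median of all genes moved by -0.40 in BAFF KO, -0.46 in APRIL KO and -0.44 in WT, so a gene at 0 on this scale, such as Sema4c in BAFF KO, still stood above the median gene. With only the higher-index column of each library the Sema4c value in BAFF KO turned to -0.15.

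The response in BAFF KO minus that in WT was -3.31 (SE 0.21) for U90926, -2.41 (SE 0.29) for Sema4c and -1.72 (SE 0.39) for Errfi1, with 0.221% of all genes called lower. The unstimulated level of Errfi1, which enters this difference, was low in BAFF KO as well. Among the 1234 genes called higher with LPS in both APRIL KO and WT, this difference was the lowest of all for U90926, and Sema4c came at place 3 and Errfi1 at 13. The rule used this difference, so low places follow from the choice and are only a description.

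**Figure D2:**
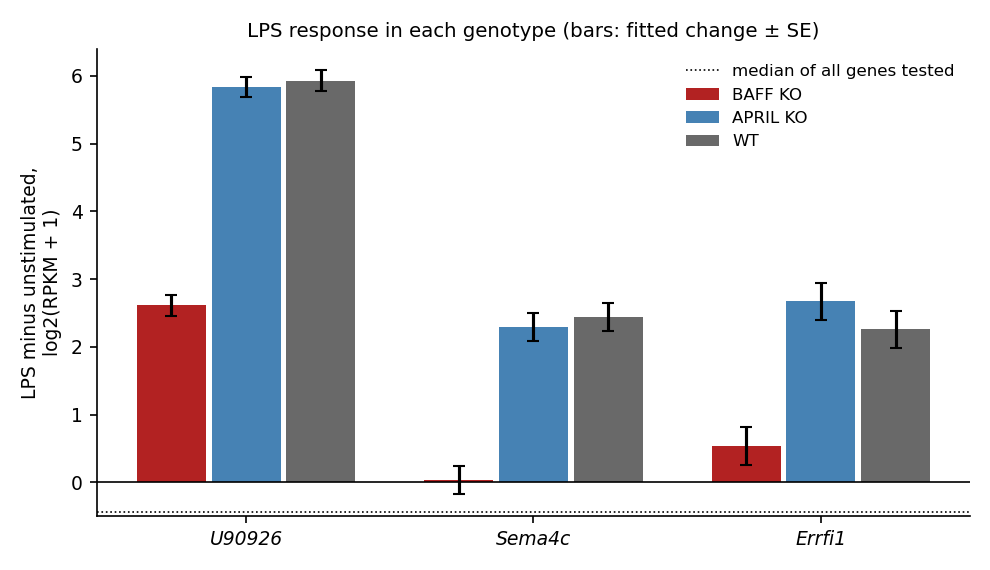
LPS minus unstimulated on the log2(RPKM + 1) scale for U90926, Sema4c and Errfi1 in BAFF KO, APRIL KO and WT; bars are fitted changes, whiskers their standard errors and the dotted line the median of all genes tested. The BAFF KO bars are at 2.61, 0.03 and 0.54, below the APRIL KO and WT bars, which lie between 2.26 and 5.93.

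A linear measure, taken on RPKM without the pseudocount, also put the 3 genes low, but in another order. It still holds the read added to each deposited value. For U90926 the floor of 0.738 RPKM stands for the unstimulated level. The rise in BAFF KO was 8.82% of the mean rise of APRIL KO and WT for U90926, 0.697% for Sema4c and 5.94% for Errfi1, in RPKM. Over the 1234 genes the median was 103% and the quartiles were 71.6% and 133%, so the middle gene that LPS raised in the other genotypes rose about as far in BAFF KO, with a wide spread around it. Only 69 of the 1234 kept under 20%. Within these 69 the 3 genes stood at places 27 (Sema4c), 38 (Errfi1) and 48 (U90926) from the smallest, so other genes lost more of their rise by this measure.

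**Figure D3:**
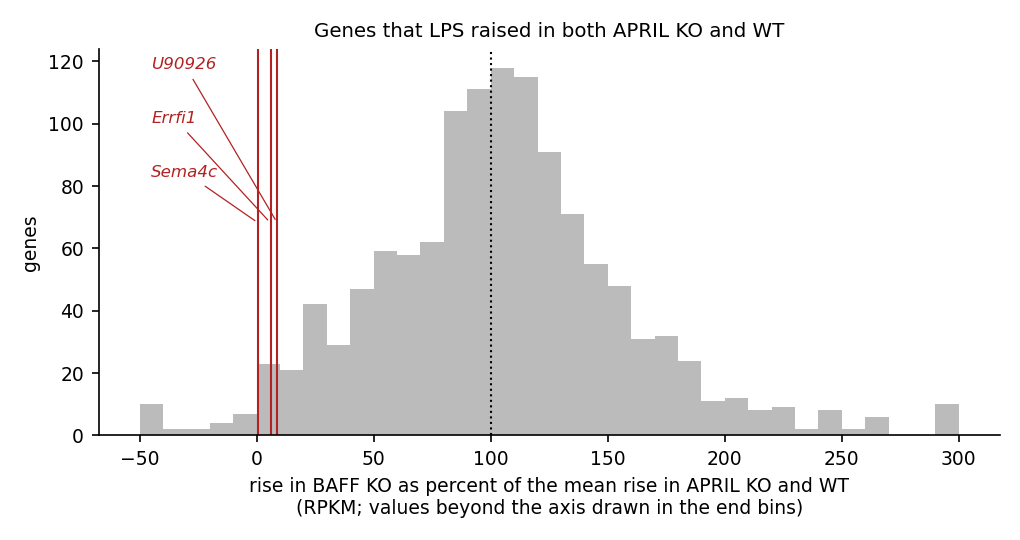
Histogram of the rise in BAFF KO as a percent of the mean rise in APRIL KO and WT (RPKM) for the 1234 genes that LPS raised in both APRIL KO and WT; red lines mark the members and the dotted line 100%. The bulk of genes lies around the median of 103%, and U90926, Errfi1 and Sema4c lie at 8.82%, 5.94% and 0.697%.

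Across the 9 libraries the 3 genes varied together. Pearson r of log2(RPKM + 1) was 0.930 between U90926 and Sema4c, 0.906 between U90926 and Errfi1 and 0.951 between Sema4c and Errfi1. The points share their libraries, and the rule itself put 4 libraries high and 2 low, so these values describe the choice as much as the genes.

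The genes whose pattern over the 9 libraries was most like each member were taken from 7107 genes with at least 5 RPKM in some group, by Pearson r on the same scale. For U90926 they were Plaur (r = 0.995), Denr (0.992), Lnpk (0.992), Pla2g4a (0.990) and Hamp (0.986). Plaur, the urokinase receptor, was with LPS at 110.3 RPKM in BAFF KO, 318 in APRIL KO and 342 in WT. Pla2g4a, the phospholipase that frees arachidonic acid, was at 10.4 RPKM in BAFF KO, 25.7 in APRIL KO and 23.3 in WT. Hamp, the iron hormone hepcidin, was at 3.604 RPKM in BAFF KO, 11.7 in APRIL KO and 9.88 in WT. All of these kept more of their level in BAFF KO than U90926 did.

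For Sema4c they were Tle3 (r = 0.982), Msr1 (0.976), Il19 (0.973), Gramd1a (0.972) and Mt2 (0.972). Il19, a cytokine of the interleukin 10 family, was with LPS at 0.677 RPKM in BAFF KO, 6.70 in APRIL KO and 8.08 in WT. Msr1, a scavenger receptor, was at 51.3 RPKM in BAFF KO, 140.1 in APRIL KO and 125 in WT. Tle3, a transcriptional corepressor, was at 10.2 RPKM in BAFF KO, 24.9 in APRIL KO and 23.7 in WT. The mean LPS levels of Tle3, Msr1 and Gramd1a were higher in APRIL KO than in WT, while those of Il19 and Mt2 were lower. On the log2(RPKM + 1) scale APRIL KO minus WT was 0.07 (SE 0.11) for Tle3, 0.16 (SE 0.09) for Msr1 and 0.11 (SE 0.11) for Gramd1a. It was -0.22 (SE 0.18) for Il19 and -0.36 (SE 0.15) for Mt2. No likeness to Sema4c is read from these directions.

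For Errfi1 they were Rcl1 (r = 0.990), Mcoln2 (0.990), Myadm (0.987), Sphk1 (0.981) and Il4ra (0.979). Il4ra, the receptor chain shared by interleukins 4 and 13, was with LPS at 9.43 RPKM in BAFF KO, 31.5 in APRIL KO and 29.7 in WT. Sphk1, which makes sphingosine 1-phosphate, was at 0.805 RPKM in BAFF KO, 4.35 in APRIL KO and 5.92 in WT. Unstimulated, Il4ra was at 8.61 RPKM in BAFF KO, 13.03 in APRIL KO and 15.02 in WT, and Sphk1 at 0.651, 0.883 and 1.24 RPKM, the same order of genotypes as Errfi1. These genes were picked for their likeness, so no test is given for them.

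The receptor that Errfi1 inhibits was barely detected in these cells. Egfr was between 0.0336 and 0.133 RPKM in all 6 groups and was not tested, and Erbb2, Erbb3 and the ligand gene Ereg are not in the table used here. Of 19 genes of EGF receptors, ligands and the proteases that release them, 7 were listed and 4 tested. BAFF KO was higher than WT with LPS in 2 of the 4 and lower in 1, beside 3.99% of all genes higher and 4.35% lower. The median change of the 4 was 0.05, against 0.02 over all genes, and APRIL KO minus WT gave 0 calls among them (limma; 2 at an unadjusted p under 0.05, and 3 calls with the 18 columns as separate samples).

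Hbegf, the ligand heparin-binding EGF, was the gene that fell. With LPS it was at 3.03 ± 0.166 RPKM in BAFF KO, 9.99 ± 1.93 in APRIL KO and 10.4 ± 2.96 in WT (SD, n = 2 libraries each), and unstimulated at 0.771, 1.12 and 2.26 RPKM. BAFF KO minus WT was -1.48 (SE 0.22; limma adjusted p = 0.00771), and adjusted p was 0.0576 without the first BAFF KO library and 0.0706 without the second. Like Errfi1, Hbegf was lowest in BAFF KO with and without LPS. LPS still raised Hbegf in BAFF KO: LPS minus unstimulated was 1.19 there, 2.36 in APRIL KO and 1.79 in WT. Its response in BAFF KO minus that in WT was -0.60 (SE 0.37) and was not called. Each response rests on 1 unstimulated library. Against WT the sheddases were higher in BAFF KO, Adam10 by 0.53 (adjusted p = 0.0231) and Adam17, which cuts Hbegf and tumour necrosis factor from the membrane, by 0.34 (adjusted p = 0.0349). Without 1 library the adjusted p of Adam10 was 0.108 (second WT), 0.0884 (first BAFF KO) and 0.139 (second BAFF KO), and that of Adam17 lay between 0.0679 and 0.140 whichever LPS library was left out. Against APRIL KO neither was called (Adam10 0.11 with limma adjusted p = 0.63, Adam17 0.14 with adjusted p = 0.39); of the 4 genes 0 were higher and 2 lower there, beside 2.48% of all genes higher and 3.06% lower. These were Hbegf (-1.44, adjusted p = 0.0103) and Rhbdf2 (-0.41, adjusted p = 0.0305), which helps Adam17 mature. Adjusted p reached 0.0807 for Hbegf without the second BAFF KO library and lay between 0.0522 and 0.173 for Rhbdf2 without any 1 LPS library; for Hbegf it was also 0.0794 without the first BAFF KO library and 0.0738 without the second APRIL KO library. Areg, another ligand, stood under 1 RPKM in every group, at 0.438 in BAFF KO, 0.318 in APRIL KO and 0.752 in WT with LPS, and was not tested.

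Of 24 genes of feedback on the EGF receptor and the ERK kinases below it, leaving out Errfi1, 17 were listed and 13 tested; with LPS 1 was lower and 0 were higher in BAFF KO than in WT (limma; 5 in all at an unadjusted p under 0.05, and 5 calls with the 18 columns as separate samples). That gene was Dusp4, a nuclear phosphatase of ERK, at 1.73 ± 0.292 RPKM in BAFF KO, 7.61 ± 2.11 in APRIL KO and 5.59 ± 1.64 in WT (SD, n = 2 libraries each). Its difference was -1.26 (SE 0.24; limma adjusted p = 0.0188), and adjusted p was 0.0967 without the first WT library, 0.109 without the first BAFF KO library and 0.0906 without the second. Unlike Errfi1, Dusp4 was not raised by LPS: its LPS minus unstimulated change averaged over genotypes was -0.47, close to the -0.44 of the median gene. The median change of the 13 was -0.18, against 0.02 over all genes. Of all genes 4.35% were called lower and 3.99% higher, so 1 call among 13 is near what these shares would give. An unadjusted p under 0.05 was found for 2508 of the 9934 genes, and 2706 were called with the 18 columns as separate samples.

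Against APRIL KO, 4 of the 13 feedback genes were lower in BAFF KO and 0 higher, beside 3.06% of all genes lower and 2.48% higher. These were Dusp4 (-1.64), Spred1 (-0.74), an inhibitor of RAS to RAF signalling, Rasa1 (-0.52), which switches RAS off, and the phosphatase Ptpn1 (-0.47), with limma adjusted p between 0.00884 and 0.0423. Spred1 was at 17.05 RPKM in BAFF KO, 29.1 in APRIL KO and 23.9 in WT with LPS, and the difference from WT of -0.46 was not called (adjusted p = 0.0724). Each of the 4 lost its call without at least 1 library: the highest adjusted p was 0.0816 for Dusp4 and 0.133 for Spred1, both without the first BAFF KO library, 0.184 for Rasa1 without the same library and 0.217 for Ptpn1 without the first APRIL KO library. APRIL KO minus WT gave 0 calls among the 13 (limma; 4 at an unadjusted p under 0.05, and 4 calls with 18 columns).

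The other semaphorins in the table were too few for their count of calls to speak for the family. Of 19 semaphorin genes, leaving out Sema4c, 5 were listed and all 5 were tested; in BAFF KO 1 was higher and 0 were lower than in WT with LPS (limma; 2 in all at an unadjusted p under 0.05, and 3 calls with 18 columns). The median change of the 5 was -0.26, against 0.02 over all genes. Of all genes 4.35% were called lower and 3.99% higher, so few calls would be found among 5 genes in any case. Sema4d, a close relative that signals through plexin-B1, plexin-B2 and CD72, went the other way from Sema4c. It was at 90.2 ± 4.96 RPKM in BAFF KO, 63.2 ± 6.12 in APRIL KO and 51.7 ± 1.16 in WT with LPS (SD, n = 2 libraries each), and at 51.1, 88.9 and 66.2 RPKM unstimulated. BAFF KO minus WT with LPS was 0.79 (SE 0.10; limma adjusted p = 0.00394), with adjusted p up to 0.0425 when a library was left out. Of the genes not called, Sema4a was at 16.5 RPKM in BAFF KO, 20.5 in APRIL KO and 20.4 in WT, and Sema7a at 5.19, 7.27 and 9.52 RPKM.

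The receptor side moved in both directions. Of 21 plexins, neuropilins and other semaphorin partners 17 were listed and 16 tested, and in BAFF KO with LPS 4 were higher and 2 lower than in WT, beside 3.99% of all genes higher and 4.35% lower, with a median of 0.24 against 0.02 over all genes. The receptor of Sema4c, Plxnb2, was well expressed, at 38.3 ± 1.16 RPKM in BAFF KO, 49.8 ± 2.27 in APRIL KO and 43.6 ± 1.94 in WT (SD, n = 2 libraries each). BAFF KO minus WT was -0.18 for Plxnb2 and was not called (adjusted p = 0.226); BAFF KO minus APRIL KO was -0.37 (limma adjusted p = 0.0483), with adjusted p between 0.0673 and 0.225 whichever library was left out. Plxnb1 is not in the table used here. Gipc1, the adaptor of the Sema4c tail, was lower in BAFF KO, at 12.7 ± 1.65 RPKM against 18.4 ± 0.784 in APRIL KO and 19.7 ± 3.27 in WT; its difference from WT was -0.59 (adjusted p = 0.0439), and adjusted p was between 0.0535 and 0.229 without 1 library.

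The genes higher in BAFF KO than in WT were Plxnd1 (0.94), a receptor of class 3 semaphorins, Plxna2 (0.79), Nrp1 (0.78), a co-receptor of class 3 semaphorins and of VEGF, and Plxnc1 (0.68), the receptor of Sema7a. Plxnd1 was at 62.7 ± 3.04 RPKM in BAFF KO, 33.8 ± 0.192 in APRIL KO and 32.2 ± 3.62 in WT (SD, n = 2 libraries each; limma adjusted p = 0.00247), with adjusted p up to 0.0312 without 1 library. Nrp1 was at 18.1, 10.4 and 10.1 RPKM in the same groups (adjusted p = 0.00569, and 0.0528 without the second BAFF KO library). Adjusted p of Plxnc1 was 0.0173, and 0.0933 without the second WT, 0.0603 without the first BAFF KO and 0.120 without the second BAFF KO library; that of Plxna2 was 0.0302, and between 0.0527 and 0.175 without any 1 LPS library. Rnd1, a small GTPase that binds plexins, fell by 1.13 (adjusted p = 0.00878, 0.0548 without the first WT library and 0.0615 without the second). It is itself a strongly LPS-induced gene, at 14.4 ± 3.63 RPKM in BAFF KO, 24.5 ± 0.592 in APRIL KO and 32.3 ± 0.922 in WT with LPS, and at 0.927, 0.811 and 0.738 RPKM unstimulated. Against APRIL KO, 2 of the 16 partners were higher in BAFF KO and 3 lower, beside 2.48% of all genes higher and 3.06% lower. Plxnd1 (0.87) and Nrp1 (0.75) were higher, and Dpysl2 (-0.93), Rnd1 (-0.74) and Plxnb2 (-0.37) lower, with limma adjusted p between 0.00403 and 0.0484. Plxna2, Plxnc1 and Gipc1 were not called there. Only Plxnd1 kept its call whichever LPS library was left out. APRIL KO minus WT gave 0 calls among the 16 partners and among the 5 semaphorins (limma; 5 and 1 at an unadjusted p under 0.05, and 6 and 1 calls with 18 columns).

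**Figure D4:**
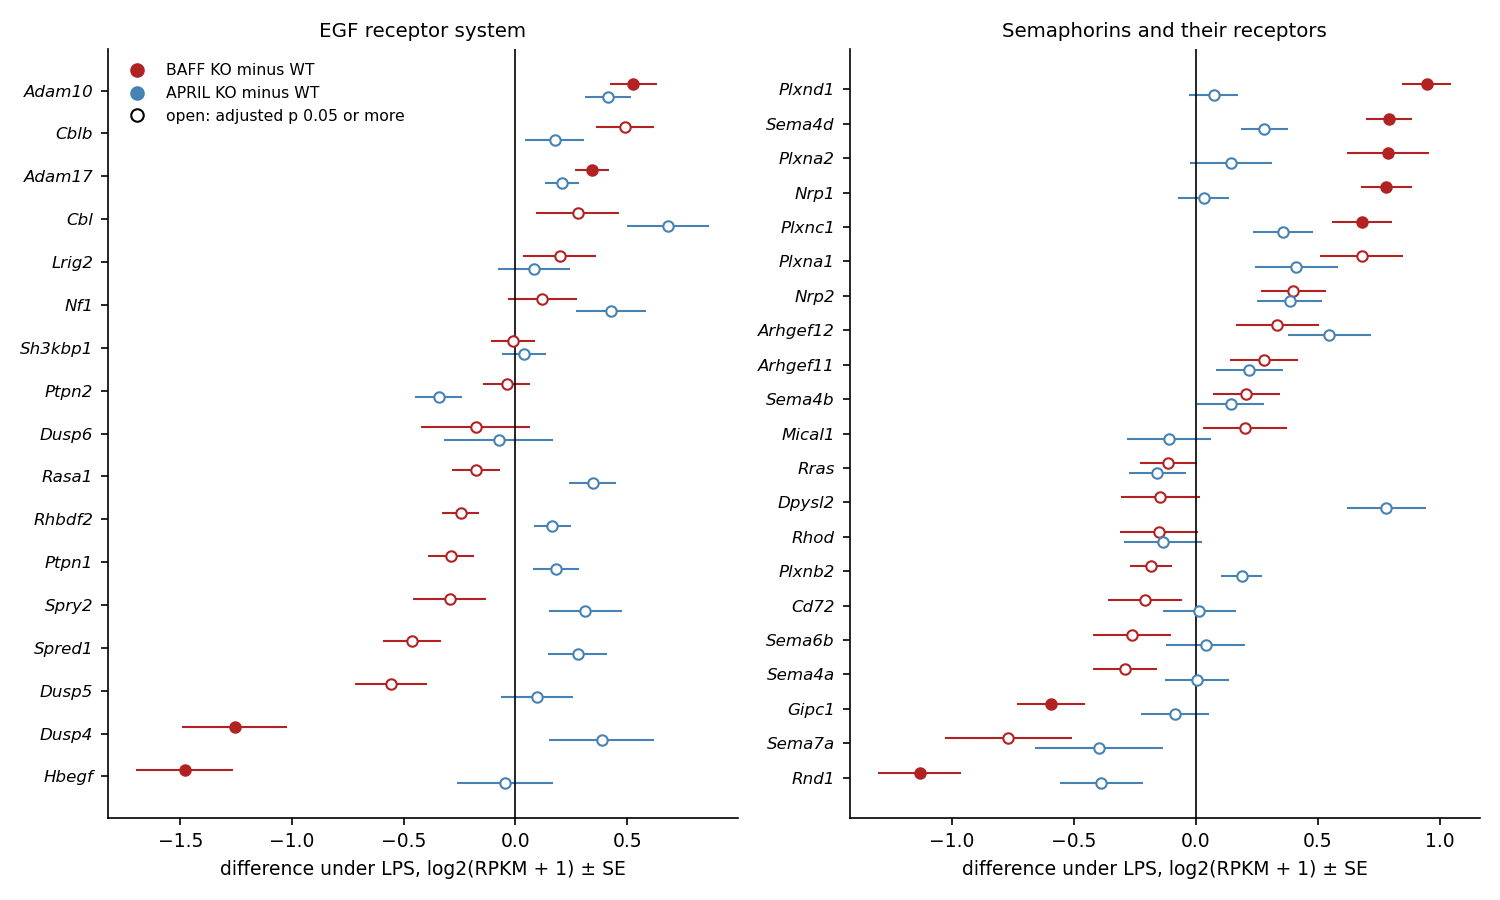
Differences with LPS on the log2(RPKM + 1) scale for the tested genes of the EGF receptor lists (left) and of the semaphorin lists (right), BAFF KO minus WT in red and APRIL KO minus WT in blue, with standard errors; filled points have an adjusted p below 0.05. Only red points are filled, 7 to the right of 0 and 4 to the left, among them Hbegf at -1.48, Dusp4 at -1.26 and Rnd1 at -1.13.

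U90926 is annotated as noncoding by RefSeq, so the long noncoding genes of the table were looked at too. Of 231 listed, 171 were tested; 2 were higher and 6 lower in BAFF KO than in WT with LPS, in number no more than the 3.99% of all genes called higher and 4.35% called lower would give. The values that follow are of single genes. G530011O06Rik, with the largest fall, was at 1.78 ± 0.631 RPKM in BAFF KO, 5.26 ± 0.608 in APRIL KO and 10.4 ± 2.04 in WT (SD, n = 2 libraries each), a difference of -2.05 from WT (limma adjusted p = 0.00219). It rose with LPS in WT by 1.41 and in APRIL KO by 1.45, and in BAFF KO its change was -0.04. Gm15832 (-1.41) and Gm14023 (-1.16) followed, and the genes that rose were Gm20460 (0.73) and Gm10863 (0.72). Without 1 library, adjusted p was up to 0.0243 for G530011O06Rik and 0.0437 for Gm15832, while Gm14023 reached 0.135 (without the second BAFF KO library), Gm20460 0.0619 (without the first WT library) and Gm10863 0.156 (without the second BAFF KO library). Gm14023, like U90926, was induced in every genotype, by 1.24 in BAFF KO, 3.13 in APRIL KO and 2.27 in WT.

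The genes next to the members were too few for their calls to be set apart from the share over all genes. Within 250 kb of U90926 11 genes were listed and 10 tested, and in BAFF KO with LPS 1 was higher and 1 lower than in WT, beside 3.99% and 4.35% of all genes. The region holds the chemokine genes Cxcl9, Cxcl10 and Cxcl11, which interferons induce. Cxcl9, 106 kb away, was at 132 ± 1.27 RPKM in BAFF KO, 34.2 ± 1.60 in APRIL KO and 38.0 ± 1.82 in WT (SD, n = 2 libraries each), higher in BAFF KO by 1.77 (SE 0.11; limma adjusted p = 0.00028), with adjusted p up to 0.0118 without 1 library. U90926 and Cxcl9 thus changed in opposite directions in the same libraries, and both were under 1 RPKM without LPS. Cxcl10 was at 3158 RPKM in BAFF KO, 3096 in APRIL KO and 3481 in WT, and Cxcl11 at 31.6, 31.3 and 37.5 RPKM; neither difference from WT was called (-0.14 with adjusted p = 0.328 for Cxcl10, -0.23 with adjusted p = 0.393 for Cxcl11).

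Uso1, the nearest gene to U90926 at 7.1 kb, was at 45.7 RPKM in BAFF KO, 53.7 in APRIL KO and 50.5 in WT with LPS and was not called (-0.14, adjusted p = 0.419). Sdad1 was lower in BAFF KO by 0.45 (adjusted p = 0.0444, and between 0.0734 and 0.181 without any 1 LPS library). The differences of Naaa (-0.47), Rchy1 (-0.26), Nup54 (0.26), Scarb2 (0.28) and G3bp2 (0.34) were not called, with adjusted p between 0.076 and 0.31. Cdkl2 was under 1 RPKM and was not tested.

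Around Sema4c 11 genes were listed and 9 tested, and 0 were called in BAFF KO against WT (limma; 2 at an unadjusted p under 0.05, and 3 calls with 18 columns); 4.35% of all genes were called lower and 3.99% higher. Ankrd39, 1.19 kb away, was at 0.608 RPKM in BAFF KO, 0.766 in APRIL KO and 0.687 in WT (-0.06). Arid5a, whose protein binds inflammatory mRNAs, was at 10.9 RPKM in BAFF KO, 8.94 in APRIL KO and 9.08 in WT (0.25, adjusted p = 0.321). Kansl3 came closest to a call (0.60, adjusted p = 0.0505), and Lman2l, Cnnm4, Cnnm3, Cox5b, Actr1b and Tmem131 lay between -0.19 and 0.36. Fer1l5 and Ankrd23 were not tested.

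Around Errfi1 6 genes were listed and 3 tested, with 0 called (limma; 0 also at an unadjusted p under 0.05 and with 18 columns). Park7, 28.2 kb away, was at 33.1 RPKM in BAFF KO, 25.6 in APRIL KO and 35.4 in WT (-0.09), Vamp3 at 10.7, 12.9 and 10.9 RPKM (-0.02) and Rere at 2.04, 2.47 and 1.59 RPKM (0.23). Tnfrsf9, Camta1 and Per3 were under 1 RPKM in every group and were not tested. Of all genes 4.35% were called lower and 3.99% higher, so 0 calls among 3 genes says little.

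**Figure D5:**
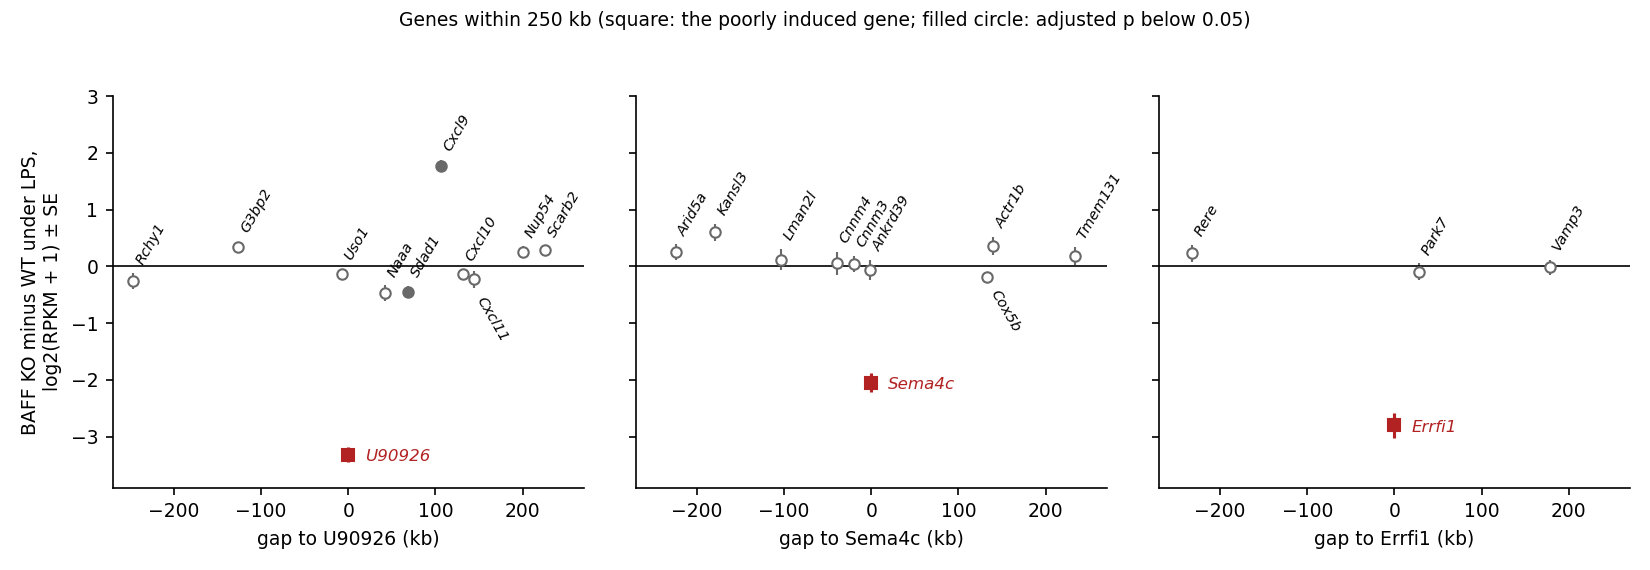
BAFF KO minus WT with LPS on the log2(RPKM + 1) scale, with standard errors, against the gap in kb to U90926, Sema4c or Errfi1 for the tested genes within 250 kb; red squares are the members and filled circles have an adjusted p below 0.05. Most neighbours lie close to 0, Cxcl9 stands at 1.77, and the members at -3.31, -2.05 and -2.80.

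Markers of other cell types also differed between the genotypes. The 8 macrophage markers summed to between 5233 and 5265 RPKM in BAFF KO with LPS, 4685 and 4968 in APRIL KO and 4791 and 5035 in WT, most of it Lyz2. Of these 8, 1 was called higher and 2 lower in BAFF KO than in WT, beside 3.99% and 4.35% of all genes. Mertk, a receptor for dying cells, was at 51.0 RPKM in BAFF KO, 24.5 in APRIL KO and 13.9 in WT with LPS (1.80, limma adjusted p = 0.000482). Cd14, the co-receptor that hands LPS to Toll-like receptor 4, was at 104 RPKM in BAFF KO, 193 in APRIL KO and 198 in WT with LPS (-0.90, adjusted p = 0.00871; 0.0712 without the first BAFF KO library and 0.0594 without the second). Fcgr1, a high-affinity antibody receptor, was at 74.7, 131 and 141 RPKM in the same groups (-0.91, adjusted p = 0.00144). Of 10 neutrophil markers 9 were listed (Ly6g was not). Their sum with LPS was 2324 to 2705 RPKM in BAFF KO, 1593 to 1628 in APRIL KO and 1344 to 1702 in WT. Unstimulated, it was 5778 RPKM in BAFF KO, 2734 in APRIL KO and 3069 in WT, from 1 library each. With LPS 7 of the 9 were called higher in BAFF KO than in WT (3.99% of all genes). Against APRIL KO 6 of the 9 were called higher (2.48% of all genes). Of 18 skeletal muscle markers 16 were listed, with sums of 41.6 to 54.5 RPKM in BAFF KO, 28.7 to 71.7 in APRIL KO and 254 to 360 in WT, and 11 of the 13 tested were lower in BAFF KO than in WT (4.35% of all genes) and 6 of the 13 lower in APRIL KO than in WT (0.201% of all genes).

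Of 9 fibroblast markers 8 were listed, and their sums with LPS were 19.3 to 65.2 RPKM in BAFF KO, 22.5 to 485 in APRIL KO and 70.1 to 258 in WT. Of 5 B cell markers 4 were listed (11.2 to 16.8 RPKM in BAFF KO, 25.98 to 29.4 in APRIL KO, 23.2 to 26.5 in WT), of 5 dendritic cell markers 4 (17.2 to 18.6, 24.1 to 26.5 and 21.7 to 25.01 RPKM in the same order), of 4 mast cell markers 3 (27.6 to 30.7, 25.8 to 28.3 and 17.2 to 22.9 RPKM) and of 4 erythroid markers 2 (43.0 to 44.2, 42.6 to 71.5 and 41.6 to 47.5 RPKM). Of 4 epithelial markers 1 was listed, at no more than 1.46 RPKM in any library, and none of 5 T or NK cell markers was. The part of any of these markers in the shortfall of the 3 genes was not tested. In bulk RNA fewer cells that express a gene and less RNA of it per cell cannot be told apart.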

How the data were processed

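Total RNA of bone marrow macrophages was extracted with the mirVana kit, and 85 bp single reads were taken on an Illumina NextSeq, per the labels' protocols. These name a directional NEBNext kit and the TruSeq kit, so strandedness is unclear. The aligner was STAR and the build mm10, per the submitters' processing notes; the counting tool is not given in the sources used here. What the authors deposited is a table of RPKM with 11164 genes in 18 columns. The deposited values are whole reads with 1 read added and with a floor per gene in place of 0: 100% of values came out whole within 0.01 reads, and reads summed to the column totals (1649338 to 4078562 reads) in 18 of 18 columns. Reads quoted in the text are these recovered reads, before the added read, which raises low RPKM slightly. Because RPKM is scaled to the reads of a column in all listed genes, strong induction of some genes lowers the RPKM of the rest.

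The 2 columns of each library number were averaged, giving 9 libraries in 6 groups. A gene was kept if its mean reached 1 RPKM in some group (9934 genes), and log2(RPKM + 1) was fitted with limma 3.58.1 in R 4.3.3 (group means with 3 residual degrees of freedom; moderated with a trend; 2-sided). Calls are Benjamini-Hochberg adjusted p below 0.05 over all genes kept. The fit was tested on simulated data with 50 changed genes per fold, all averaging above 5 RPKM. Every simulated gene had the same SD between libraries, 0.21 on the log2 scale, while real genes differ in it. The rates that follow are those of the simulation and may not hold for these data. For BAFF KO against WT with LPS it recovered 26% of 1.5-fold and 86% of 2-fold changes. All 4-fold and 8-fold changes were recovered, with 6 false calls. Changes of 1.5-fold were thus mostly missed, which limits what a gene not called can show. Exact Poisson intervals of 95% and floors of 3 reads per library cover counting error only. Symbols came from GENCODE M21 (11084 IDs; 80 had none). RefSeq promoter windows of 250 bases were searched for motifs.

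The members, the gene lists and the tests were chosen with earlier results of these data known. Named genes are the members, the 5 genes most like each in pattern among genes with at least 5 RPKM in some group, up to 3 called genes per direction and list (where a list count was of 5 or fewer, all its genes are named, those past the rule after their values were seen), direct partners of Errfi1 and Sema4c, and all listed genes within 250 kb. The alternatives tried were 0.1 as pseudocount, leaving genes unfiltered, scaling by median ratios, quantile normalization, all 18 columns as samples of their own, only the lower or only the higher index column of a library, a replicate block, and leaving out each LPS library.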

Additional observations from a re-analysis of the deposited data

Results flagged for a closer look

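Sema4d and Cxcl9 drew attention because their LPS response differed between BAFF KO and WT by the test of that difference itself. For Sema4d the LPS response in BAFF KO minus that in WT was 1.16 on the log2(RPKM + 1) scale (SE 0.17; limma adjusted p = 0.0365), and for Cxcl9 it was 1.60 (SE 0.18; limma adjusted p = 0.0198). In BAFF KO Sema4d was at 90.2 RPKM with LPS and 51.1 unstimulated, and in WT at 51.7 with LPS and 66.2 unstimulated. In BAFF KO Cxcl9 was at 132 RPKM with LPS and 0.272 unstimulated, and in WT at 38.0 with LPS and 0.131 unstimulated. LPS minus unstimulated for Sema4d was 0.81 in BAFF KO and -0.35 in WT, beside medians over all genes of -0.40 in BAFF KO and -0.44 in WT, while Cxcl9 was higher with LPS in both genotypes. Sema4c, of the same family as Sema4d, and U90926, the neighbour of Cxcl9, had the opposite sign in this difference. Each difference uses 1 unstimulated library per genotype. Adjusted p was between 0.0672 and 0.151 for Sema4d and between 0.0519 and 0.133 for Cxcl9 when any 1 of the 6 LPS libraries was left out, so neither call holds without all of them. The call of Sema4d was also lost under median ratio scaling (0.0589) and with no filter (0.0724), that of Cxcl9 with the pseudocount of 0.1 (0.0699), and both with the lower index column alone (0.151 for Sema4d and 0.128 for Cxcl9).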

How the results depend on the processing

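The APRIL KO minus WT differences of U90926, Sema4c and Errfi1, with LPS and in the LPS response, were not called under any of the alternatives run, and the BAFF KO minus WT and BAFF KO minus APRIL KO values of all 3 genes stayed negative under all of them. Values that moved by more than 1 SD between libraries were, for BAFF KO minus WT with LPS, -3.11 (quantile normalization) and -3.45 (higher index column alone) for U90926, -2.41 (pseudocount 0.1), -1.87 (lower index column alone) and -2.25 (higher) for Sema4c, and -3.34 (pseudocount) for Errfi1. With the pseudocount of 0.1 BAFF KO minus APRIL KO was -2.72 for Sema4c and -3.20 for Errfi1. The response in BAFF KO minus that in WT was -3.45 for U90926 (higher index), -2.94 (pseudocount) and -2.59 (higher index) for Sema4c and -1.97 for Errfi1 (lower index).

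LPS responses depend on the scaling, since median ratio scaling moved all LPS libraries against the unstimulated ones. In BAFF KO U90926 gave 3.54 (pseudocount), 2.87 (median ratio) and 2.80 (quantile), Errfi1 0.90 (pseudocount) and 0.76 (median ratio), and Sema4c 0.34 (median ratio), 0.34 (quantile) and -0.15 (higher index, the direction reversed; the cause was not tested). In APRIL KO, with pseudocount, median ratio and quantile, U90926 gave 6.87, 6.14 and 5.98, Sema4c 2.65, 2.70 and 2.70 and Errfi1 3.19, 3.05 and 3.03. In WT U90926 gave 6.97 and 6.23 (pseudocount, median ratio), Sema4c 2.98, 2.81 and 2.80, and Errfi1 2.56, 2.68 and 2.64, with 2.58 and 1.99 for the lower and higher index column.

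Leaving out 1 library, Errfi1 ranged over -3.05 to -2.55 for BAFF KO minus WT, -2.92 to -2.42 for BAFF KO minus APRIL KO, -1.97 to -1.47 for the difference of responses and 0.29 to 0.79 for the response in BAFF KO. Genes called in BAFF KO against WT ranged over 76 to 267 higher and 139 to 317 lower (396 and 432 with all libraries), those of the 4 pathway lists over 2 to 5 and 1 to 3 (7 and 4), and those in APRIL KO against WT over 0 to 1 and 1 to 24 (1 and 20). With the 18 columns as separate samples the counts were 1444 and 1262 (lists 11 and 11) for BAFF KO and 757 and 604 (lists 13 and 1) for APRIL KO. With the lower index column alone they were 87 and 142 (lists 4 and 1) for BAFF KO and 0 and 0 for APRIL KO. For APRIL KO, no filter gave 0 higher and 5 lower, median ratio scaling 2 higher and quantile normalization 4 higher.

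Replicate numbers did not pair the libraries: the deviations of same-numbered LPS libraries correlated at -0.18 between BAFF KO and WT, -0.10 between APRIL KO and WT and 0.12 between BAFF KO and APRIL KO. With a replicate block 259 genes were higher and 305 lower in BAFF KO than in WT, and 0 higher and 19 lower in APRIL KO than in WT. The block ended the calls against WT of Gipc1 (limma adjusted p = 0.073), Plxna2 (0.0554), Adam17 (0.0739), Sdad1 (0.0789) and Gm10863 (0.0654). It also ended those against APRIL KO of Rhbdf2 (0.0619), Rasa1 (0.0589), Ptpn1 (0.0809), Plxnb2 (0.0943) and Rnd1 (0.0558), and those in the response of Sema4d (0.0977) and Cxcl9 (0.0527). With the lower index column alone the calls against WT of Hbegf (0.159), Dusp4 (0.0868), Gipc1 (0.242), Plxna2 (0.136), Adam17 (0.116), Plxnc1 (0.065), Sdad1 (0.236), Gm10863 (0.0725), Gm14023 (0.164) and Gm15832 (0.148) were lost. Depth limits Errfi1 in unstimulated BAFF KO (15 reads) and U90926 in all unstimulated libraries (0 reads).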
